A study of Mus musculus with 20 samples.

Results

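The 9 genes described here encode transcription factors that control lysosomal and autophagy genes. They were chosen by name from the 45706 genes of the count files: Tfeb, Tfe3, Mitf and Tfec of the MiT/TFE family, the zinc finger repressor gene Zkscan3, the forkhead genes Foxo1, Foxo3 and Foxo4, and Max. RNA-seq was performed on tumors and on tumor cell lines of the PyMT mouse, in which the polyoma middle T oncogene under the MMTV promoter drives mammary carcinoma, on a C57BL/6N background. Tumors were taken at 18 weeks of age from 4 control mice, described as wild type in the labels and as carrying untargeted or floxed Ctsd alleles in the methods, and from 4 MMTV-cre;Ctsd-/- mice. There, cathepsin D is deleted in mammary epithelium, so that stromal cells still carry Ctsd. PyMT cells of Ctsd+/+ and of Ctsd-/- genotype were kept in medium with 1% FCS, a mild starvation, for 10 days (1% FCS) or for 12 weeks (1% FCS LT), with 3 cultures in each of the 4 groups. The cells were a Ctsd+/+ line and a Ctsd-/- line grown from tumors, and how many mice stood behind each line is not given in the sources used here. Genotype and cell line cannot be told apart, and p-values for the cells measure the spread between cultures of these lines.

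MiT/TFE proteins are basic helix-loop-helix leucine zipper factors. When mTORC1 is active at the lysosome they are phosphorylated and held in the cytoplasm. In starvation they enter the nucleus and bind E-boxes with the core CACGTG in the promoters of lysosomal genes. ZKSCAN3 represses many of the same genes. FoxO factors are excluded from the nucleus after phosphorylation by AKT or SGK, and activate genes of autophagy, metabolism and growth arrest when this signal is low. MAX is the obligate dimer partner of MYC and of the MXD proteins, and these dimers also bind CACGTG. Much of this control acts on the location of the protein, which RNA levels do not show.

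The DNA sites these factors are known for were looked up in RefSeq promoters of GRCm38.p6, from 250 bases before to 50 bases after each transcription start, on both strands. The core CACGTG lay in 8.09% of 27025 genes, the longer palindrome TCACGTGA, which contains it, in 1.12%, and the forkhead site GTAAACA in 4.05%. Of 31 MiT/TFE target genes with a promoter, 12 held CACGTG and 7 held TCACGTGA. They were listed as known targets of factors that bind this core, so the share is not an independent result. CACGTG was also held by 9 of 26 genes that act on MiT/TFE proteins and by 4 of 11 MAX network genes. It was held by 3 of 16 genes that act on FoxO, 4 of 22 FoxO targets and 1 of 12 other autophagy transcription factor genes. Among 22 FoxO target genes with a promoter, 4 held GTAAACA. Promoters were found for 7 of the 9 transcription factor genes, all but Foxo4 and Zkscan3, and the Max promoter alone held CACGTG, across its transcription start from base -3 to base 3. The following 30-base stretches show this site, the 7 target genes with TCACGTGA (for Ctsa and Gla, which hold it at 2 places, 1 of them) and both FoxO targets with GTAAACA that changed in a comparison below. Each reads 5′ to 3′ on the strand of the gene, with the matched site in capitals (in Sesn1 the site is on the other strand, so its reverse complement is shown).
Max (chr12:76962234-76962263, minus strand): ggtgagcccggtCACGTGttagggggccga
Atp6v0d1 (chr8:105566050-105566079, minus strand): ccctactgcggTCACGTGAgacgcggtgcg
Atp6v0e (chr17:26676387-26676416, plus strand): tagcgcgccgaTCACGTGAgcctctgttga
Clcn7 (chr17:25133386-25133415, plus strand): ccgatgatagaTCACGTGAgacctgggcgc
Ctsa (chr2:164833749-164833778, plus strand): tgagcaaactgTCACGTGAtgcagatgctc
Gla (chrX:134601182-134601211, minus strand): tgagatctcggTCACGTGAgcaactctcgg
Mcoln1 (chr8:3500462-3500491, plus strand): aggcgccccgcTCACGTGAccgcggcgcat
Pip4p1 (chr14:50930886-50930915, minus strand): gggccagcctgTCACGTGAgcggggcggca
Txnip (chr3:96557825-96557854, plus strand): ttggaggcctgGTAAACAagggccaagtag
Sesn1 (chr10:41810585-41810614, plus strand): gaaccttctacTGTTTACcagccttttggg
A match is a description of the letters and was not tested for binding.

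Between 49725437 and 64291587 reads per tumor and between 33622831 and 40239762 reads per cell sample were counted on genes. Ctsd, the deleted gene, lay at 1781 to 2617 CPM (counts scaled to the TMM-adjusted size of each library) in control and at 360 to 1295 in MMTV-cre;Ctsd-/- tumors. In cells it lay at 1267 to 4199 CPM in the Ctsd+/+ and at 114 to 192 CPM in the Ctsd-/- groups. The 1% FCS Ctsd+/+ cells stood apart from the other 3 cell groups. Their 8 epithelial markers summed to 1000 to 2105 CPM against 6055 to 13867 in the other groups. Krt14, 1 of the 8, did not follow the sum, with a mean of 38.3 CPM in these cells. Its means were 6.79 CPM in 1% FCS Ctsd-/-, 3.87 in 1% FCS LT Ctsd-/- and 53.1 in 1% FCS LT Ctsd+/+ cells. The 7 fibroblast markers summed to 1178 to 3310 CPM in the 1% FCS Ctsd+/+ cells, against 3.05 to 99.8 in the other groups. These fibroblast markers were uneven, with Col1a1 at 17699 to 75982, Pdgfrb at 6103 to 22717, Col3a1 at 614 to 8673 and Pdgfra at 418 to 2477 counts. Col1a2 had 17 to 141 counts, Dcn 0 to 62 and Lum 0 in all 3 cultures, so the sum does not name a cell type. The difference of these cells concerns each comparison that uses them, and its part there was not tested. Among tumors, the 7 adipocyte markers summed to 222 to 2280 CPM in controls and to 1152 to 11597 CPM in MMTV-cre;Ctsd-/- tumors. Control tumor 4 had the fewest reads and the lowest Foxo1, Foxo3 and Tfe3 levels of all 8 tumors. Its share of reads ambiguous between genes was the highest, 15.6% against 7.11% to 12.4%. So was its share of reads not assigned to a gene, 32.7% against 24.7% to 32.5%. The LR numbers in the labels separate the control from the MMTV-cre;Ctsd-/- tumors completely, so LR number and genotype cannot be told apart there. In cells, each LR number holds both genotypes.

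Compared per kilobase of exon (RPKM), Max was the highest of the 9 genes in 5 of the 6 groups, and in 1% FCS LT Ctsd+/+ cells Foxo3 exceeded it. Max and Foxo3 overlapped in both Ctsd-/- cell groups. In control tumors Max had a mean of 19.97 RPKM and did not overlap with the next gene, Foxo3, at 10.4 RPKM. Foxo1, Zkscan3, Tfe3, Tfeb and Foxo4 followed at means of 5.92 to 2.30 RPKM, and each of these overlapped with its neighbor in that order. Mitf at 0.395 RPKM and Tfec at 0.213 RPKM were the lowest there. In 1% FCS Ctsd+/+ cells the order was Max at 19.5, Foxo3 at 14.6, Tfe3 at 8.40, Foxo4 at 8.22, Zkscan3 at 6.39, Foxo1 at 4.89, Tfeb at 1.22 and Mitf at 0.384 RPKM, where only Tfe3 and Foxo4 overlapped. Tumors and cells were scaled and sequenced separately and were not tested against each other.

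**Figure D1:**
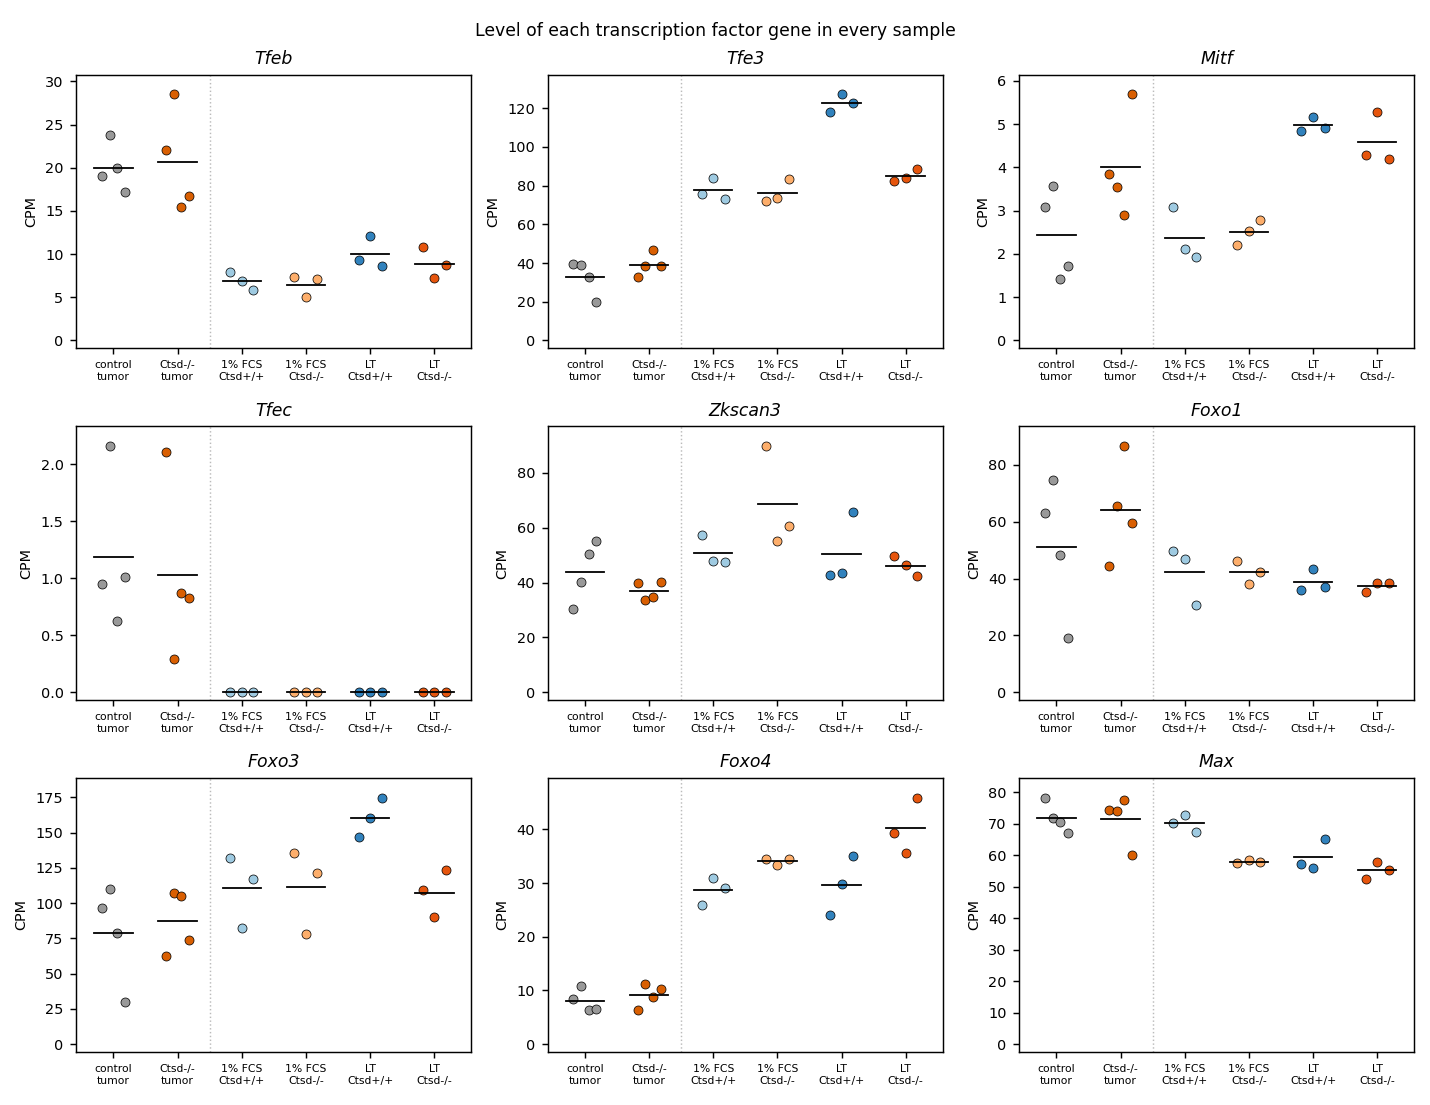
CPM of the 9 genes (1 panel each, linear axis) in every sample of the 6 groups; each point is a sample and each line a group mean, with tumors left and cells right of the dotted line. Tfe3 lies at 118 to 127 CPM in 1% FCS LT (LT) Ctsd+/+ cells, above all other cell samples, and Tfec is at 0 in all 12 cell samples.

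The tumor comparison asked whether loss of cathepsin D in the epithelium changed these genes at 18 weeks. No member passed an adjusted p of 0.05 (edgeR quasi-likelihood test, Benjamini-Hochberg over 18617 genes), none had an unadjusted p under 0.05, and none was called by DESeq2 or limma-voom. Over all genes, edgeR called 1 gene, the coat color gene nonagouti (0.00537%), and 8.94% had an unadjusted p under 0.05. Nonagouti was higher in MMTV-cre;Ctsd-/- tumors (log2 FC 10.03, SE 0.62, edgeR adjusted p = 0.000242), and whether the tumor groups differ in strain background was not tested. At the unadjusted p under 0.1 that the study used for tumors, 1 of 9 members passed, against 16.7% of all genes. No member had tumor groups that did not overlap, against 4.15% of all genes. On simulated data of this design, 77.0% of the genes changed by a log2 FC of 2 were recovered, so smaller changes could be missed.

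Cells were compared by genotype within each culture time and by culture time within each genotype. Of the 9 genes, 8 were tested in cells and Tfec was too low. In 1% FCS, 1 of 8 members, Max, was called, and it was lower in Ctsd-/- cells, against 48.5% of all genes called and 25.1% called lower. After 12 weeks in 1% FCS LT, 3 of 8 were called between genotypes (39.6% of all genes): Foxo4 was higher (20.5% of all genes) and Tfe3 and Foxo3 were lower (19.1%) in Ctsd-/- cells. Between 1% FCS LT and 1% FCS, 3 of 8 were called in Ctsd+/+ cells (46.4% of all genes), with Tfe3 and Mitf higher (23%) and Max lower (23.4%) after 12 weeks, and Mitf alone also had an absolute log2 FC above 1 (23.4%). In Ctsd-/- cells no member was called by edgeR over culture time, against 2.38% of all genes, and 2 of 8, Mitf and Zkscan3, had an unadjusted p under 0.05 (18% of all genes). DESeq2 called Mitf there and limma-voom called none. The share of members called was thus at or below that of all genes in each of these comparisons. In the interaction contrast, which asks whether the genotype difference changed between the culture times, 1 of 8 was called and was lower, Tfe3, against 30.3% of all genes called and 14.1% called lower.

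By range alone more members separated than were called in 3 of the 4 cell comparisons. The groups did not overlap for 2 of 8 members between genotypes in 1% FCS (55.2% of all genes), for 3 of 8 in 1% FCS LT (54.2%), for 3 of 8 over culture time in Ctsd-/- cells (25.4%) and for 5 of 8 in Ctsd+/+ cells (53.7%). The 3 in Ctsd-/- cells were Mitf, Zkscan3 and Foxo4, none of them called by edgeR. Between culture times, in both genotypes, the share of members was above that of all genes, and between genotypes it was below. The 4 comparisons share groups in pairs, so their calls are not independent of each other.

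**Figure D2:**
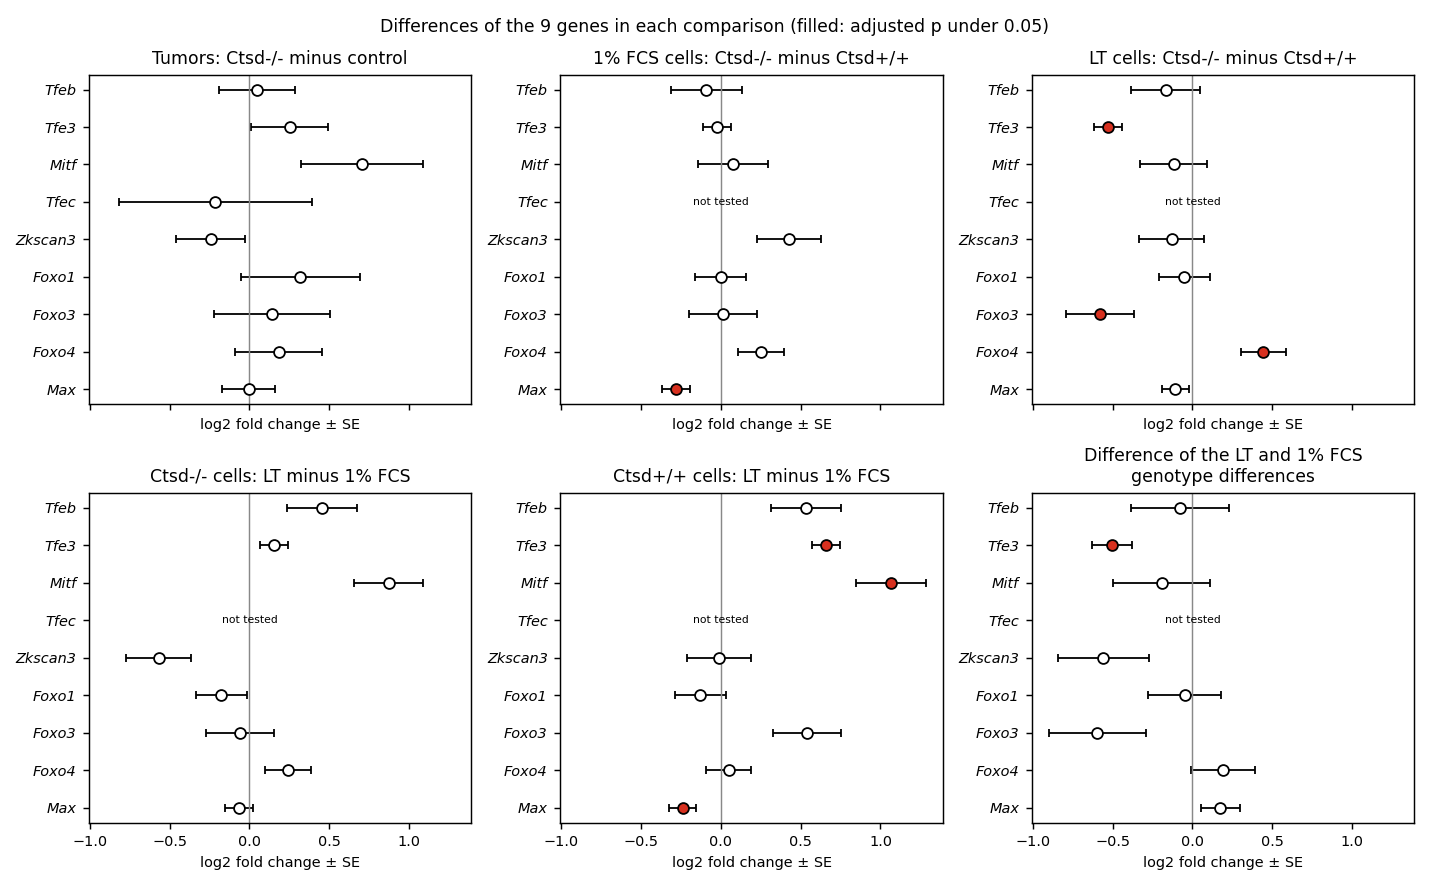
Log2 fold change (x axis) with its standard error (bars) of the 9 genes in the tumor comparison, the 4 cell comparisons and the interaction; filled points have an adjusted p under 0.05. Tfe3 is filled in 3 panels, Max in 2, and no gene is filled in the tumor panel.

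Tfe3, an MiT/TFE factor held in the cytoplasm by mTORC1, was the family member with the clearest differences. In 1% FCS it lay at 75.9, 84.2 and 73.3 CPM in Ctsd+/+ and at 72.3, 73.8 and 83.2 CPM in Ctsd-/- cells, and these ranges overlapped. After 12 weeks it lay at 118, 127 and 123 CPM in Ctsd+/+ and at 82.4, 84.1 and 88.5 CPM in Ctsd-/- cells. All 3 Ctsd+/+ cultures after 12 weeks were above the other 9 cell samples. The rise in Ctsd+/+ cells over culture time was 1.58-fold (log2 FC 0.66, SE 0.090, edgeR adjusted p = 0.000115). In Ctsd-/- cells the difference over the same time was a log2 FC of 0.15 (SE 0.089, edgeR adjusted p = 0.404). Between genotypes in 1% FCS LT, Tfe3 was lower in Ctsd-/- than in Ctsd+/+ cells by 0.53 on the log2 scale (SE 0.089, edgeR adjusted p = 0.000656). The genotype difference in 1% FCS was -0.03 (SE 0.089). The interaction was -0.50 (SE 0.13, edgeR adjusted p = 0.0106), and without the filter on low counts it missed the threshold at an adjusted p of 0.0543. The long-term contrast does not include the 1% FCS Ctsd+/+ cells, although they enter the shared fit of the 12 cell samples. The long-term Tfe3 call held in all 22 alternatives, which include a fit of the 2 long-term groups alone. Fibroblast markers summed to 3.05 to 8.37 CPM in the long-term Ctsd+/+ and to 9.51 to 99.8 CPM in the long-term Ctsd-/- cells.

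Mitf, the melanocyte and osteoclast factor of the family, was low in all samples and moved with culture time. It lay at 3.09, 2.11 and 1.94 CPM in 1% FCS Ctsd+/+ cells and at 4.84, 5.17 and 4.92 CPM in 1% FCS LT Ctsd+/+ cells, with no overlap. This was a 2.09-fold rise (log2 FC 1.07, SE 0.22, edgeR adjusted p = 0.00185). In Ctsd-/- cells it lay at 2.21, 2.52 and 2.78 CPM in 1% FCS and at 4.29, 5.28 and 4.19 CPM in 1% FCS LT, again with no overlap. The log2 FC there was 0.87 (SE 0.22) with an edgeR adjusted p of 0.0588. It passed the threshold with DESeq2 (adjusted p = 0.00383), with at least 10 counts required in every sample (0.0463), with LR number in the model (0.0373) and without 1% FCS Ctsd+/+ replicate 1 (0.0311). The change over culture time was not shown to differ between the genotypes (interaction -0.19, SE 0.30, edgeR adjusted p = 0.673). The 5 melanocyte markers summed to at most 1.74 CPM in any cell sample.

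In tumors Mitf lay at 3.09, 3.57, 1.41 and 1.73 CPM in controls and at 3.84, 3.55, 2.91 and 5.69 CPM in MMTV-cre;Ctsd-/- mice. The ranges overlapped, and it was the member with the unadjusted p under 0.1 (log2 FC 0.70, SE 0.38, edgeR adjusted p = 0.593). With the adipocyte markers as a covariate the value was 0.28 (SE 0.67), and the macrophage markers as a covariate gave 0.74 (SE 0.41). In bulk tissue, fewer cells of a type and less RNA per cell cannot be told apart. The 10 macrophage markers summed to 1294 to 2857 CPM in control and 1271 to 2494 CPM in MMTV-cre;Ctsd-/- tumors.

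Tfec, the member of the family best known from macrophages, was read in tumors and not in cells. It lay at 0.950, 2.16, 0.630 and 1.02 CPM in control tumors and at 2.11, 0.292, 0.869 and 0.830 CPM in MMTV-cre;Ctsd-/- tumors, so that each group held 1 tumor above 2 CPM. The difference was within that spread (log2 FC -0.21, SE 0.60, edgeR adjusted p = 0.914). All 12 cell samples had 0 counts, which allows up to 3 counts per library or 0.0746 to 0.0892 CPM. Macrophage markers summed to 19.0 to 94.7 CPM in cells. Of the 10, Cd14 (401 to 1224 counts), Cd68 (65 to 843), Csf1r (80 to 2295) and, at few counts, Mrc1 (2 to 12) were read in every cell sample. The complement genes C1qa, C1qb and C1qc and the Fc receptor gene Fcgr1 had 0 or 1 count in each of the 12.

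Tfeb, often called the master regulator of lysosomal genes, differed little. Control tumors had 19.0, 23.9, 19.9 and 17.2 CPM and MMTV-cre;Ctsd-/- tumors 22.1, 28.5, 15.5 and 16.7 CPM, with the control range inside the other (log2 FC 0.05, SE 0.24). In 1% FCS it lay at 7.95, 6.87 and 5.89 CPM in Ctsd+/+ and at 7.35, 4.98 and 7.10 CPM in Ctsd-/- cells. After 12 weeks it lay at 9.30, 12.1 and 8.57 CPM in Ctsd+/+ and at 10.8, 7.21 and 8.68 CPM in Ctsd-/- cells. The 12-week Ctsd+/+ cultures were all above the 10-day ones, and the log2 FC of 0.53 (SE 0.22) missed the threshold with an edgeR adjusted p of 0.0651. It passed with DESeq2 (adjusted p = 0.0476) and with LR number in the model (0.0305). In Ctsd-/- cells the ranges overlapped and the log2 FC was 0.46 (SE 0.22, edgeR adjusted p = 0.304).

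Within the family, cells were dominated by Tfe3 and tumors were not. Per length, Tfe3 made up 77.4% to 86.1% of the summed MiT/TFE level in the 12 cell samples. In control tumors Tfeb held a mean of 46.7% ± 5.69 (SD, n = 4) and Tfe3 45.5% ± 5.83, whereas MMTV-cre;Ctsd-/- tumors had 41.5% ± 8.69 and 48.8% ± 8.49. The summed level was 10.0 ± 0.694 RPKM (SD, n = 3) in 1% FCS Ctsd+/+, 9.80 ± 0.773 for 1% FCS Ctsd-/-, 15.8 ± 0.804 for 1% FCS LT Ctsd+/+ and 11.5 ± 0.274 for 1% FCS LT Ctsd-/- cultures. The 1% FCS LT Ctsd+/+ cultures did not overlap with any other group (exact permutation p = 0.1 against 1% FCS LT Ctsd-/- and against 1% FCS Ctsd+/+ cells, two-sided, the smallest p that 3 against 3 allows). In tumors the sums were 7.68 ± 1.59 and 8.70 ± 0.750 RPKM (n = 4 each, exact permutation p = 0.314, two-sided).

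**Figure D3:**
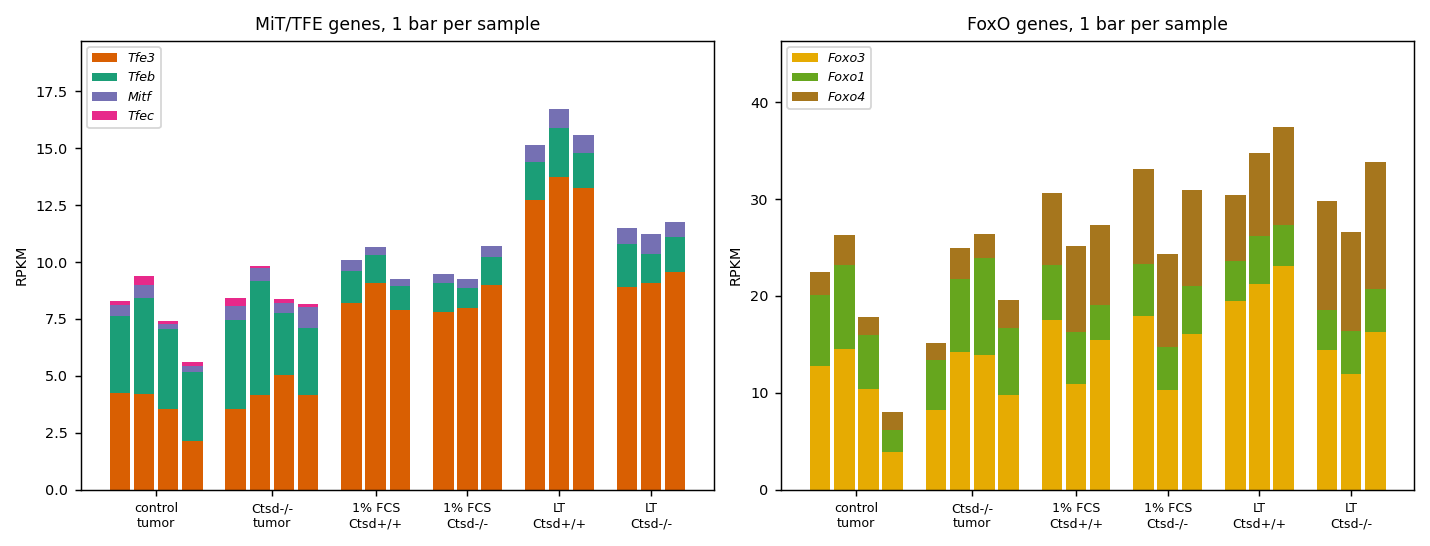
Stacked RPKM of the 4 MiT/TFE genes (left) and of Foxo1, Foxo3 and Foxo4 (right), 1 bar per sample in the order of the replicates, grouped as labelled on the x axis. The MiT/TFE sum has means of 15.8 RPKM in 1% FCS LT Ctsd+/+ cells and 11.5 RPKM in 1% FCS LT Ctsd-/- cells, with Tfe3 as the largest part of each cell bar.

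Zkscan3, the repressor of the set, passed in no comparison. It lay at 57.5, 47.7 and 47.7 CPM in 1% FCS Ctsd+/+ and at 89.8, 55.1 and 60.7 CPM in 1% FCS Ctsd-/- cells, where replicate 1 was the highest of both groups. The log2 FC was 0.43 (SE 0.20, edgeR adjusted p = 0.101), and with LR number in the model the adjusted p was 0.0445. After 12 weeks it lay at 42.6, 43.4 and 65.6 CPM in Ctsd+/+ and at 49.5, 46.5 and 42.4 CPM in Ctsd-/- cells. All 3 Ctsd-/- cultures were then below the 10-day Ctsd-/- cultures (log2 FC -0.57, SE 0.20, edgeR adjusted p = 0.166). In tumors it ranged from 30.3 to 55.0 CPM in controls and from 33.6 to 40.1 CPM in MMTV-cre;Ctsd-/- mice (log2 FC -0.24, SE 0.21), so that the second range lay inside the first.

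Foxo3, the most abundant of the FoxO genes, was higher in long-term Ctsd+/+ than in long-term Ctsd-/- cells. Its 1% FCS LT levels were 147, 160 and 175 CPM in Ctsd+/+ and 109, 90.1 and 123 CPM in Ctsd-/- cells, without overlap. The log2 FC was -0.58 (SE 0.21, edgeR adjusted p = 0.0488). This call was lost in 7 of 22 alternatives, on leaving out 1% FCS Ctsd-/- replicate 3 (adjusted p = 0.0629), 1% FCS LT Ctsd+/+ replicate 1 (0.0675), 2 (0.0998) or 3 (0.124), or 1% FCS LT Ctsd-/- replicate 1 (0.0971) or 2 (0.169), and within the single LR number that both culture times share (0.0700). In 1% FCS it lay at 132, 82.3 and 117 CPM in Ctsd+/+ and at 136, 78.0 and 122 CPM in Ctsd-/- cells. These ranges overlapped, and the log2 FC was 0.015 (SE 0.21). Cultures with the same replicate number lay close together, at log2 ratios of 0.037, -0.079 and 0.054 for replicates 1, 2 and 3. The SE takes the cultures as unpaired, so it includes this shared spread. Over culture time in Ctsd+/+ cells the log2 FC was 0.54 (SE 0.21, edgeR adjusted p = 0.0571), with no overlap of the groups. It passed in 8 of 22 alternatives, among them DESeq2 (adjusted p = 0.0390). In Ctsd-/- cells it was -0.06 (SE 0.21). The genotype difference was not shown to change between the culture times (interaction -0.60, SE 0.30, edgeR adjusted p = 0.163), and of 21 alternatives 1 passed, without 1% FCS Ctsd-/- replicate 2 (-0.80, adjusted p = 0.0452).

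Foxo4 differed in the opposite direction. It lay at 24.0, 29.8 and 35.0 CPM in 1% FCS LT Ctsd+/+ and at 39.4, 35.6 and 45.9 CPM in 1% FCS LT Ctsd-/- cells, and the groups did not overlap, although 35.0 and 35.6 lay close together. The difference was 1.36-fold (log2 FC 0.44, SE 0.14, edgeR adjusted p = 0.0269). The call was lost without 1% FCS LT Ctsd+/+ replicate 1 (log2 FC 0.32, adjusted p = 0.101) or 2 (0.0677), without 1% FCS LT Ctsd-/- replicate 3 (0.104), and when only these 2 groups were fitted (0.0644). In 1% FCS it lay at 26.0, 31.0 and 29.0 CPM in Ctsd+/+ and at 34.4, 33.4 and 34.5 CPM in Ctsd-/- cells, without overlap (log2 FC 0.25, SE 0.14, edgeR adjusted p = 0.166). In each of the 2 culture times every Ctsd-/- culture was above every Ctsd+/+ culture, and the difference was not shown to change with time (interaction 0.19, SE 0.20). Of Foxo1, Foxo3 and Foxo4 summed per length, Foxo4 made up 24.7% ± 2.12 in long-term Ctsd+/+ and 38.4% ± 0.491 in long-term Ctsd-/- cells (SD, n = 3). Foxo3 made up 62.2% ± 1.45 and 47.1% ± 2.01. The sum itself was 34.2 ± 3.50 and 30.1 ± 3.64 RPKM (n = 3 each, exact permutation p = 0.2, two-sided, where 0.1 is the smallest possible). It leaves out Foxo6, at means of 25.5 CPM in long-term Ctsd+/+ and 0.722 CPM in long-term Ctsd-/- cells. These shares and sums are therefore not those of the whole FoxO family.

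Foxo1 did not pass in any comparison with all samples included. In cells its means lay between 37.4 and 42.4 CPM, and the largest difference was a log2 FC of -0.18 (SE 0.16, edgeR adjusted p = 0.616) over culture time in Ctsd-/- cells. In Ctsd+/+ cells the log2 FC of -0.13 over the same time became -0.32 without 1% FCS Ctsd+/+ replicate 3 and then passed (edgeR adjusted p = 0.0469). The lowest and the highest value, 30.8 and 49.7 CPM, both came from 1% FCS Ctsd+/+ cells. In control tumors it lay at 63.1, 74.6, 48.4 and 19.1 CPM and in MMTV-cre;Ctsd-/- tumors at 44.4, 65.4, 86.6 and 59.7 CPM (log2 FC 0.32, SE 0.37). Without control tumor 4 the value was 0.05 (SE 0.25). Foxo3 in tumors lay at 96.9, 110, 78.8 and 29.8 CPM in controls and at 62.2, 107, 105 and 74.0 CPM in MMTV-cre;Ctsd-/- mice (log2 FC 0.14, SE 0.36), and it turned to -0.13 (SE 0.23) without control tumor 4. Tfe3 was at 39.5, 39.0, 32.9 and 19.6 CPM in controls and 32.8, 38.4, 46.5 and 38.5 CPM in MMTV-cre;Ctsd-/- tumors, with a log2 FC of 0.25 (SE 0.24) that became 0.08 (SE 0.17) without that tumor. Foxo4 ranged from 6.42 to 10.7 CPM and from 6.33 to 11.2 CPM in the 2 tumor groups.

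Max was the steadiest of the genes, with a ratio of the highest to the lowest sample of 1.303 in tumors and 1.39 in cells. In 1% FCS it lay at 70.4, 72.9 and 67.5 CPM in Ctsd+/+ and at 57.4, 58.4 and 57.8 CPM in Ctsd-/- cells. After 12 weeks it lay at 57.3, 56.1 and 65.0 CPM in Ctsd+/+ and at 52.4, 57.9 and 55.4 CPM in Ctsd-/- cells. The 3 cultures of 1% FCS Ctsd+/+ cells, which had the high fibroblast marker sums, were thus above the other 9. Between genotypes in 1% FCS the log2 FC was -0.28 (SE 0.086, edgeR adjusted p = 0.0181). This call was lost without 1% FCS Ctsd+/+ replicate 2 (adjusted p = 0.0593) or 1% FCS Ctsd-/- replicate 3 (0.0578), within that LR number (0.0589) and without the filter on low counts (0.0994). Over culture time in Ctsd+/+ cells it was -0.24 (SE 0.086, edgeR adjusted p = 0.0381). That call was lost in 10 of 22 alternatives. Among them were 8 that left out a culture (replicates 1 or 2 of 1% FCS Ctsd+/+ and of 1% FCS LT Ctsd+/+ cells, and replicates 2 or 3 of 1% FCS Ctsd-/- and of 1% FCS LT Ctsd-/- cells), with adjusted p up to 0.140. The others were the fit without the filter on low counts (0.149) and the fit of these 2 groups alone (0.105). In tumors it was at 67.0 to 78.2 CPM in controls and 60.0 to 77.7 CPM in MMTV-cre;Ctsd-/- mice (log2 FC -0.0060, SE 0.17).

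Some known partners of MAX differed by larger folds than Max. Mxd1, a MAX partner that opposes MYC, lay at 13.8, 13.95 and 14.1 CPM in 1% FCS Ctsd+/+ and at 130, 152 and 148 CPM in 1% FCS LT Ctsd+/+ cells (log2 FC 3.37, SE 0.12, edgeR adjusted p = 2.8e-08). In Ctsd-/- cells the rise was 0.68 on the log2 scale (SE 0.11, adjusted p = 0.0126), to 14.3 to 17.9 CPM, and the interaction was -2.69 (SE 0.16, adjusted p = 1.25e-06). Mycl and Mycn, both MYC paralogs, were highest in 1% FCS Ctsd+/+ cells, at 2.64 to 13.1 and 3.48 to 16.3 CPM, and lay at most at 1.45 and 0.666 CPM in the other cell groups. Of the 12 genes of the MAX network, 2 were called higher and 6 lower in 1% FCS Ctsd-/- cells (66.7% called, against 48.5% of all genes, with a median log2 FC of -0.22, against 0.00025). In 1% FCS LT Ctsd-/- cells 4 were called lower and 0 higher (33.3% called, against 39.6% of all genes, with a median of -0.09, against 0.01), among them Mlxip, partner of MLX (log2 FC -1.13), and Mga (-0.70).

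Genes that act on MiT/TFE proteins, mainly mTORC1, Rag and folliculin subunits, were counted from a list of 28. In 1% FCS Ctsd-/- cells 6 were higher and 4 lower, and in 1% FCS LT Ctsd-/- cells the counts were again 6 and 4 (median log2 FC -0.03 and 0.13, against 0.00025 and 0.01 over all genes). In both comparisons 35.7% of the list was called, below the 48.5% and 39.6% of all genes. The lower genes included the mTORC1 kinase gene Mtor (log2 FC -0.80 in 1% FCS and -0.94 in 1% FCS LT, edgeR adjusted p = 7.68e-06 and 4.27e-06) and its subunit gene Rptor (-0.82 in 1% FCS LT, adjusted p = 7.96e-06). Mtor lay at 68.9 to 78.2 CPM in the Ctsd-/- and at 121 to 146 CPM in the Ctsd+/+ groups. The Rag GTPase genes Rragc and Rragb went in opposite directions in 1% FCS LT Ctsd-/- cells, with log2 FC of -0.74 and 1.22. Between 10 days and 12 weeks in Ctsd+/+ cells 9 were higher and 2 lower (39.3% called, against 46.4% of all genes, with a median of 0.18, against 0.0045), among them Flcn, the Rag-activating folliculin (0.73), Rheb (0.53) and Rptor (0.51). No gene of the list was called over culture time in Ctsd-/- cells by edgeR (2.38% of all genes), and 4 of 28 had an unadjusted p under 0.05 (18% of all genes).

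Known MiT/TFE targets, counted from a list of 39 genes without Ctsd, went both ways. Of the 37 tested in cells, 4 were higher and 6 lower in 1% FCS Ctsd-/- cells, and 4 and 4 in 1% FCS LT Ctsd-/- cells (median log2 FC 0.12 and 0.21). The shares called, 27.0% and 21.6%, were below the 48.5% and 39.6% of all genes. The acid phosphatase gene Acp5 was higher in both (log2 FC 4.40 and 1.73, edgeR adjusted p = 1.50e-05 and 0.00484), as was the sialidase gene Neu1 (1.92 and 1.09, adjusted p = 0.000284 and 0.0117). Pip4p1, a lysosomal phosphoinositide phosphatase gene, and the sulfamidase gene Sgsh were lower in both. Over culture time in Ctsd+/+ cells, where Tfe3 and Mitf rose, 6 were higher and 4 lower (27.0% called, against 46.4% of all genes, with a median of 0.09), with Acp5 at a log2 FC of 2.31 and Gpnmb, a lysosomal membrane glycoprotein gene, at -2.16. Pip4p1 alone was called between the culture times of Ctsd-/- cells (0.58, SE 0.090, adjusted p = 0.0100), which is 2.70% of the tested targets against 2.38% of all genes.

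The 7 targets whose promoters hold TCACGTGA, printed above, were no more uniform. None of the 7 was called by edgeR over culture time in Ctsd+/+ cells, against 46.4% of all genes. Their log2 FC there ran from -0.34 for the cathepsin A gene Ctsa to 0.35 for the proton pump subunit gene Atp6v0e. In 1% FCS Ctsd-/- cells 1 of the 7 was called higher and 1 lower, against 48.5% of all genes called. These were Mcoln1, a lysosomal calcium channel gene (0.78, SE 0.21, adjusted p = 0.0102), and Pip4p1 (-0.95, SE 0.090, adjusted p = 6.86e-06). In 1% FCS LT Ctsd-/- cells 2 of the 7 were called, both lower, against 39.6% of all genes called and 19.1% called lower. These were Atp6v0e (-0.38, SE 0.14, adjusted p = 0.0437) and Pip4p1 (-0.50, SE 0.089, adjusted p = 0.000892). The proton pump gene Atp6v0d1, the chloride-proton exchanger gene Clcn7, Ctsa and the galactosidase gene Gla were called in no comparison.

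The AKT, SGK and 14-3-3 genes that act on FoxO proteins were counted from a list of 21. In 1% FCS Ctsd-/- cells 8 were higher and 1 lower (median log2 FC 0.22), and in 1% FCS LT Ctsd-/- cells 5 were higher and 4 lower (median -0.10). In both 42.9% of the list was called, against 48.5% and 39.6% of all genes. The kinase gene Sgk3 was higher in the first (0.81, SE 0.14, edgeR adjusted p = 0.000653) and lower in the second (-1.05, SE 0.14, adjusted p = 0.000147). Its interaction was -1.87 (SE 0.20, adjusted p = 4.89e-05), and it lay at 8.71 to 11.3 CPM in 1% FCS Ctsd+/+ and at 24.0 to 29.3 CPM in 1% FCS LT Ctsd+/+ cells. The 14-3-3 gamma gene Ywhag was higher in Ctsd-/- cells at both times (0.88 and 0.72). In the interaction contrast 5 genes of the list were called, all lower (23.8%, against 30.3% of all genes called and 14.1% called lower).

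Known FoxO targets, 19 of 24 tested in cells, were called higher for 3 and lower for 5 in 1% FCS Ctsd-/- cells and for 2 and 5 in 1% FCS LT Ctsd-/- cells (median log2 FC -0.17 and -0.04). The shares called, 42.1% and 36.8%, were below the 48.5% and 39.6% of all genes. Pdk4, a kinase gene of glucose metabolism, lay at 28.6, 50.5 and 41.5 CPM in 1% FCS Ctsd+/+ cells and had 0 counts in all 3 1% FCS Ctsd-/- cultures, where the mean was at least 450-fold lower (against 3 counts per library). Txnip, a thioredoxin inhibitor gene with GTAAACA in its promoter, lay at 116, 172 and 220 CPM in 1% FCS LT Ctsd+/+ and at 79.7, 52.2 and 54.3 CPM in 1% FCS LT Ctsd-/- cells (log2 FC -1.45, SE 0.30, edgeR adjusted p = 0.00227). The ubiquitin ligase gene Fbxo32 went the other way there (1.44, SE 0.38, adjusted p = 0.0107). Sesn1, a stress-induced inhibitor of mTORC1 that also holds the site, was lower in 1% FCS Ctsd-/- cells (-1.09, SE 0.22, adjusted p = 0.00166).

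Other transcription factors linked to autophagy were counted from a list of 17. Foxo6, the remaining FoxO gene, lay at 2.07 to 3.90 CPM in 1% FCS Ctsd+/+ and at 20.8 to 29.8 CPM in 1% FCS LT Ctsd+/+ cells. Ctsd-/- cells had at most 0.910 CPM. Over culture time it rose in both genotypes, by a log2 FC of 3.11 in each (edgeR adjusted p = 1.01e-05 in Ctsd+/+ and 0.00855 in Ctsd-/- cells). In Ctsd-/- cells it rose from 1 to 4 counts to 20 to 38 counts. There it was the 1 gene of the list called (6.25% of 16 tested, against 2.38% of all genes). It was called lower in Ctsd-/- cells at both times (log2 FC -5.13 and -5.14, edgeR adjusted p = 2.75e-06 and 9.94e-07). Xbp1, a factor of the unfolded protein response, was lower at both times (-0.84 and -0.995), and Usf1, which binds E-boxes, was higher at both (0.57 and 0.50). Of the 16 tested, 2 genes were higher and 3 lower in 1% FCS, below the 48.5% of all genes called, and 2 and 2 in 1% FCS LT, below 39.6%.

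No gene of the 6 pathway lists passed the adjusted threshold in tumors with edgeR. DESeq2 called 1, Mlxipl, a glucose-responsive partner of MLX (log2 FC 2.42 with edgeR, SE 0.56). Unadjusted p-values under 0.05 were found for 2 of 39 MiT/TFE targets, Acp5 (log2 FC 1.06) and Ppargc1a (1.33), and for 5 of 22 FoxO targets, with Pdk4 at 3.94, Pck1 at 3.38 and Cat at 0.92, against 8.94% of all genes. All 7 adipocyte markers had unadjusted p-values under 0.05 in the same direction (median log2 FC 2.90), and their part in these values was not tested.

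**Figure D4:**
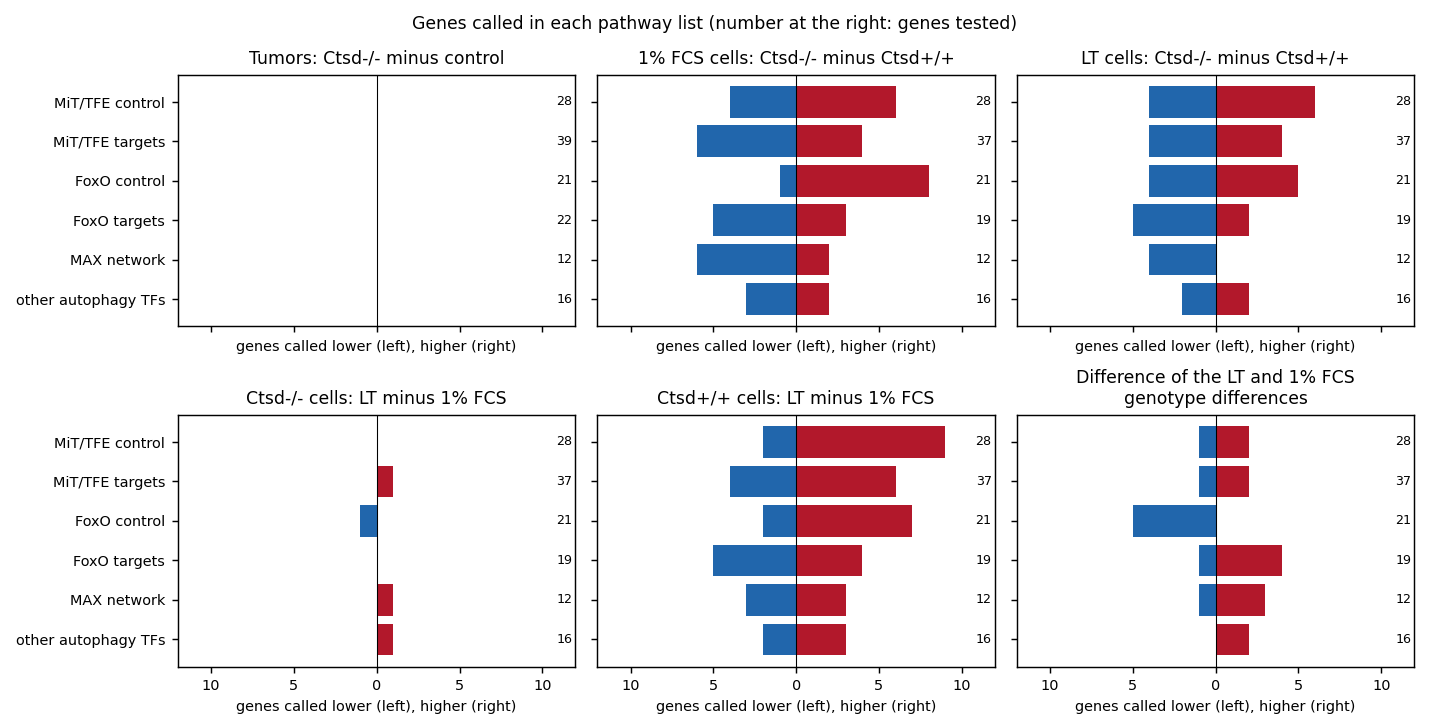
Number of genes of each pathway list called higher (right of 0) or lower (left of 0) at an adjusted p under 0.05 in the 6 comparisons, with the number tested at the right edge of each panel. Over culture time in Ctsd+/+ cells 9 of 28 MiT/TFE control genes are higher and 2 lower, and in tumors no list has a called gene.

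For the 5 members called in a cell comparison, the genes with the most similar pattern were sought among 11055 tested genes, by the root mean square difference of centred log2 CPM over the 12 cell samples. The nearest to Tfe3, whose own SD was 0.30, were Rps6ka3 at 0.098, Rnh1 at 0.10 and Aftph at 0.10. The nearest to Mitf were Tom1l2 at 0.21, Agfg2 at 0.22 and Cpeb2 at 0.24, with an SD of 0.54. Psrc1, Edrf1 and Zbtb7b were nearest to Foxo3, at 0.13 each. Atxn2 at 0.10, Fam193a at 0.11 and Actr8 at 0.11 were nearest to Foxo4. Ranbp9 at 0.058, Snx1 at 0.060 and Arcn1 at 0.066 were nearest to Max, whose SD was 0.15.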

How the data were processed

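RNA-seq was performed on 8 tumors and 12 cell samples. Per the methods and labels, the authors trimmed reads with Trimmomatic, used STAR to map them to GRCm38 (mm10), and deposited unnormalized read counts for each Ensembl gene in 3 forms (regardless of strand, own strand, opposite strand). Counts regardless of strand were used in tumors, where 52.8% to 53.7% of stranded counts lay on the opposite strand, and opposite-strand counts in cells (97.1% to 97.3%). Symbols came from GENCODE M21 for 45143 of 45706 genes. Foxo1 shares 674 bp of exon with the antisense gene Gm20402, so in tumors their reads cannot be told apart.

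The test was that of edgeR 4.0.16 under R 4.3.3 (filterByExpr, TMM, glmQLFit and glmQLFTest, two-sided, Benjamini-Hochberg over 18617 genes in tumors and 15178 in cells). The 12 cell samples were fitted together. DESeq2 1.42.0, limma 3.58.1 and other settings were alternatives. On simulated data 77.0% (tumors) and 97.4% (1% FCS genotype comparison) of genes with an absolute log2 FC of 2 were recovered, with 5.63% and 5.03% of calls false. CPM uses TMM-scaled totals and RPKM the union exon length. No 2 replicates were alike enough to be 1 library.

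The transcription factor genes and the lists were chosen with earlier results of these data known. From each list, up to 4 called genes with the largest absolute log2 FC and groups that do not overlap could be named (for the interaction, the largest among the called). Genes named with unadjusted values in tumors, the 7 targets with a promoter match, the macrophage genes, and Mlxipl and nonagouti were named outside that limit or after their values were seen. Counting intervals and the limit of 3 counts cover counting error only.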

Additional observations from a re-analysis of the deposited data

Results flagged for a closer look

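The change of Tfe3 with culture time differed between the genotypes by a test of the difference itself. It rose from a mean of 77.8 to 123 CPM in Ctsd+/+ cells and lay at means of 76.4 and 85.01 CPM in Ctsd-/- cells, and the interaction was -0.50 on the log2 scale (SE 0.13, edgeR adjusted p = 0.0106). All 3 long-term Ctsd+/+ cultures were above the other 9 cell samples. The 1% FCS Ctsd+/+ cells, 1 of the 4 groups in this contrast, had high fibroblast marker sums, and the part of this in the interaction was not tested. Over 18 groups of 4 tumors (9 genes in 2 groups), no tumor was far enough from the others to be singled out, where chance gives about 1 in 20.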

How the results depend on the processing

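Numbers of members called at an adjusted p under 0.05 moved as follows. In tumors 0 were called in each alternative run. Between genotypes in 1% FCS the count of 1 became 0 without the filter on low counts and within the LR number that both culture times share, became 2 with LR number in the model, and lay at 0 to 1 when a library was left out (0 without 1% FCS Ctsd+/+ replicate 2 or 1% FCS Ctsd-/- replicate 3). In 1% FCS LT the 3 calls were 1 to 3 when a library was left out (1 without 1% FCS LT Ctsd+/+ replicate 1 or 2). Over culture time in Ctsd-/- cells the 0 became 1 with DESeq2, with at least 10 counts in every sample and with LR number in the model, and was 0 to 1 over the libraries left out. In Ctsd+/+ cells the 3 became 5 with DESeq2 and with LR number in the model, and was 2 to 4 over the libraries left out. The interaction count of 1 became 0 without the filter and was 1 to 2 over the libraries left out. No member called with edgeR changed direction in an alternative.

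Replicate numbers did not pair the cultures throughout. Correlations of deviations between same-number cell cultures were -0.295 to 0.362, over 0.1 in 7 of 18 pairs. They were under 0 in all 4 tumor pairs. Between genotypes in 1% FCS every same-number pair was above 0, with 0.362 for replicate 1 and 0.299 for replicate 3. Different-number pairs there ran from -0.361 to 0.195. Over culture time same-number pairs were above 0 in Ctsd-/- cells (0.077 to 0.192) and under 0 in Ctsd+/+ cells (-0.143 to -0.033). The main test took the cultures as unpaired. With the replicate block, 4 members were called over culture time in Ctsd+/+ cells, where Foxo3 was added (log2 FC 0.58, adjusted p = 0.0126), and the other counts stayed as they were. Foxo1 in 1% FCS became 0.012 under the block.

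Uncalled log2 FC that changed sign were at most 0.25 in size. With LR number in the model they were 0.0041 (Foxo1, 1% FCS genotype), 0.012 (Foxo3, Ctsd-/- culture time), 0.048 (Zkscan3) and -0.10 (Foxo4, both Ctsd+/+ culture time). Within the shared LR number they were 0.061 (Foxo1, 1% FCS genotype), 0.16 (Zkscan3, 1% FCS LT genotype), 0.032 (Foxo1) and -0.16 (Foxo4, both Ctsd+/+ culture time). For the 1% FCS genotype, Foxo3 became -0.0013 with DESeq2, -0.0013 with RLE size factors and -0.0079 with at least 10 counts, and Foxo1 became 0.032 with limma-voom. In tumors, Max became 0.0051 without the filter, 0.00066 with at least 10 counts and 0.17 with the adipocyte covariate, where Foxo4 became -0.040. When a library was left out, the ranges in tumors were -0.047 to 0.070 (Max), -0.83 to 0.25 (Tfec), -0.15 to 0.17 (Tfeb) and -0.13 to 0.35 (Foxo3). For the 1% FCS genotype they were -0.21 to 0.068 (Tfeb), -0.21 to 0.13 (Foxo1), -0.087 to 0.037 (Tfe3), -0.074 to 0.31 (Mitf) and -0.16 to 0.22 (Foxo3), and for the 1% FCS LT genotype -0.10 to 0.036 (Foxo1) and -0.24 to 0.10 (Zkscan3). Over culture time they were -0.26 to 0.11 (Foxo3, Ctsd-/-), -0.24 to 0.10 (Zkscan3, Ctsd+/+) and -0.088 to 0.18 (Foxo4, Ctsd+/+), and in the interaction -0.24 to 0.083 (Tfeb) and -0.17 to 0.13 (Foxo1). The cause of these shifts was not tested. Over all genes, edgeR's 1 tumor call became 265 with DESeq2 and 33 without the filter, and the 361 calls over culture time in Ctsd-/- cells became 1084 with DESeq2, 680 without the filter and 61 without 1% FCS Ctsd-/- replicate 3. Depth limits the precision for Tfec, with 19 to 140 counts per tumor and 0 in all cell samples, and for Mitf, with 68 to 343 counts per tumor and 69 to 205 per cell sample.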
